A study of Mus musculus with 4 samples.

Results

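Serum amyloid genes were read in livers of mice lacking YAP, a coactivator controlled by Hippo signalling, and in livers of wildtype mice, at 0 h and at 24 h after acetaminophen. The 5 genes are Saa1, Saa2, Saa3, Saa4 and Apcs, out of 30751 genes with a probe set of their own, and each was read by its single annotated probe set. They were selected by name with the differences between these same arrays already known, so their differences are descriptions and carry no test. RNA came from whole liver lysates of male mice, and 4 arrays were hybridised, each with RNA pooled from 3 mice. The groups were YAP-KO mice 24 h after 300 mg/kg acetaminophen given intraperitoneally, wildtype mice 24 h after the same overdose, YAP-KO mice at 0 h and wildtype mice at 0 h. All 4 groups were fasted, and the wildtype mice carried a floxed Yap1 allele. The Cre driver and the cells that lost Yap1 are not given in the sources used here. Overdose, elapsed time and feeding after the fast cannot be told apart, because no array held mice at 24 h without acetaminophen. Each group has a single array, so no difference can be set against a spread between replicates, and pooling hides the spread between mice.

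Serum amyloid A proteins are small apolipoproteins that travel on high density lipoprotein (HDL). SAA1 and SAA2 belong to the acute phase response: hepatocytes make them in large amounts when interleukin 1, tumour necrosis factor and interleukin 6 reach the liver. These cytokines act through NF-kB, C/EBP and STAT3. Amyloid A deposits derive from acute phase serum amyloid A. SAA3 is an acute phase form made in the mouse by macrophages and fat cells as well as liver, SAA4 is the constitutive form on HDL, and serum amyloid P component, encoded by Apcs, is a pentraxin that binds amyloid fibrils and is the main acute phase pentraxin of the mouse.

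These Saa genes lie within 42.3 kb of chromosome 7 (chr7:46711998-46754313, GRCm38.p6), and Apcs lies on chromosome 1 (chr1:172893961-172895054). Saa1 and Saa2 run in opposite directions, and the transcript starts that the RefSeq promoter table lists for them are 8.85 kb apart. Their promoters are shown because these genes had nearly parallel levels over the arrays, and those of Saa3 and Saa4 because their levels went differently. Each sequence is the 250 bases before the listed transcript start (RefSeq, GRCm38.p6), written along the gene's strand. For Saa2, Saa4 and Apcs that start is the outer end of the gene record. For Saa1 it lies 201 bases inside the record, and for Saa3 3.94 kb inside it, so the Saa3 window and 201 of the 250 bases of the Saa1 window fall within the gene as annotated. Capitals mark matches, on either strand, to the C/EBP motif TTGCNNAA and to the general NF-kB consensus of 11 letters.
Saa1: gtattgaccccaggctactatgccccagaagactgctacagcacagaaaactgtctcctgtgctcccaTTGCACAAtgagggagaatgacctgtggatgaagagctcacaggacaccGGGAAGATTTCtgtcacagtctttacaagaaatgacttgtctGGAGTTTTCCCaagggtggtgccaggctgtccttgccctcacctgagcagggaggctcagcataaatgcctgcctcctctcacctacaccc
Saa2: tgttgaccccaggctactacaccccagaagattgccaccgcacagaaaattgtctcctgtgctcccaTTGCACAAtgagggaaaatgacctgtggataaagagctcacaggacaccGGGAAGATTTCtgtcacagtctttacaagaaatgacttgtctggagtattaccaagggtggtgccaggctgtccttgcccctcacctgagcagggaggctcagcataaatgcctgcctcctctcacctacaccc
Saa3: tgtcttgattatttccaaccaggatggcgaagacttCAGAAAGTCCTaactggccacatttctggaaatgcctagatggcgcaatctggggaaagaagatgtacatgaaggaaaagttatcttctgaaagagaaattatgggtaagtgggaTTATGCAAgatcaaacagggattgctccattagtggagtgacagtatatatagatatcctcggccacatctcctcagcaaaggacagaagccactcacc
Saa4: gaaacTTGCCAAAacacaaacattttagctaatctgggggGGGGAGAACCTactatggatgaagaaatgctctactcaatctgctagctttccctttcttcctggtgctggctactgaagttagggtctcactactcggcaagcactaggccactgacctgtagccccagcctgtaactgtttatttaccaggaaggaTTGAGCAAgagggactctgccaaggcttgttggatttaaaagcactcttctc

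The windows are chr7:46742981-46743230 (minus strand) for Saa1, chr7:46751583-46751832 (plus strand) for Saa2, chr7:46715677-46715926 (minus strand) for Saa3 and chr7:46732604-46732853 (minus strand) for Saa4. The Saa1 and Saa2 promoters were identical at 238 of 251 aligned columns (94.8%), whereas the other pairs among the 5 promoters were identical at 42.6% to 48.9% of columns, without a correction for what unrelated sequences share by alignment. Both held the C/EBP match TTGCACAA, and both held the NF-kB consensus match GGGAAGATTTC. Saa1 had a further NF-kB consensus match, GGAGTTTTCCC, at 91 to 81 bases before its listed start, where Saa2 had none. Saa3 had 1 C/EBP match and Saa4 had 2, while Apcs had none and carried 1 match to the STAT motif TTCNNNGAA. The motif TATAAA on the gene's strand and the HNF1 motif on either strand were found in 0 of the 5. Among 32851 RefSeq promoters of the longer window of 250 bases before to 50 after the listed start, 10.8% held the C/EBP motif, 8.3% the STAT motif, 8.3% TATAAA and 62.1% the NF-kB consensus. The HNF1 motif of 13 letters was held by only 3 of the 32851, so its absence from these 5 says nothing about HNF1 sites. Such a match is a run of letters and not a measured site.

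Values are probe-set signals on a log2 scale, as judged from their range, so that 1 unit is 2-fold. A level can be followed between arrays for one probe set but not set against that of another. The array medians lay between 4.32 and 4.47, and the hepatocyte genes Alb, Ttr, Apoa1, Apob and Serpina1c sat within 0.01 of the top value of every array and were treated as saturated. None of the serum amyloid genes was saturated, the closest being Saa4, which stayed at least 1.16 below the top. Yap1 read 6.01 in YAP-KO and 8.24 in wildtype at 24 h, and 6.31 and 7.54 in the same order at 0 h. Which exons of Yap1 are deleted is not given in the labels.

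Saa1 and Saa2, the acute phase forms, had higher readings in YAP-KO livers at 24 h and at 0 h alike, and the gap was wider at 24 h. At 24 h Saa1 read 17.05 in YAP-KO and 9.69 in wildtype, and at 0 h it read 14.49 in YAP-KO and 10.52 in wildtype. Saa2 read 16.72 in YAP-KO and 8.52 in wildtype at 24 h, and 13.48 in YAP-KO and 9.17 in wildtype at 0 h. Both YAP-KO arrays therefore lay above both wildtype arrays for each gene. In whole liver RNA, a change in the number of cells that make a transcript and a change in transcript per cell cannot be told apart.

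**Figure D1:**
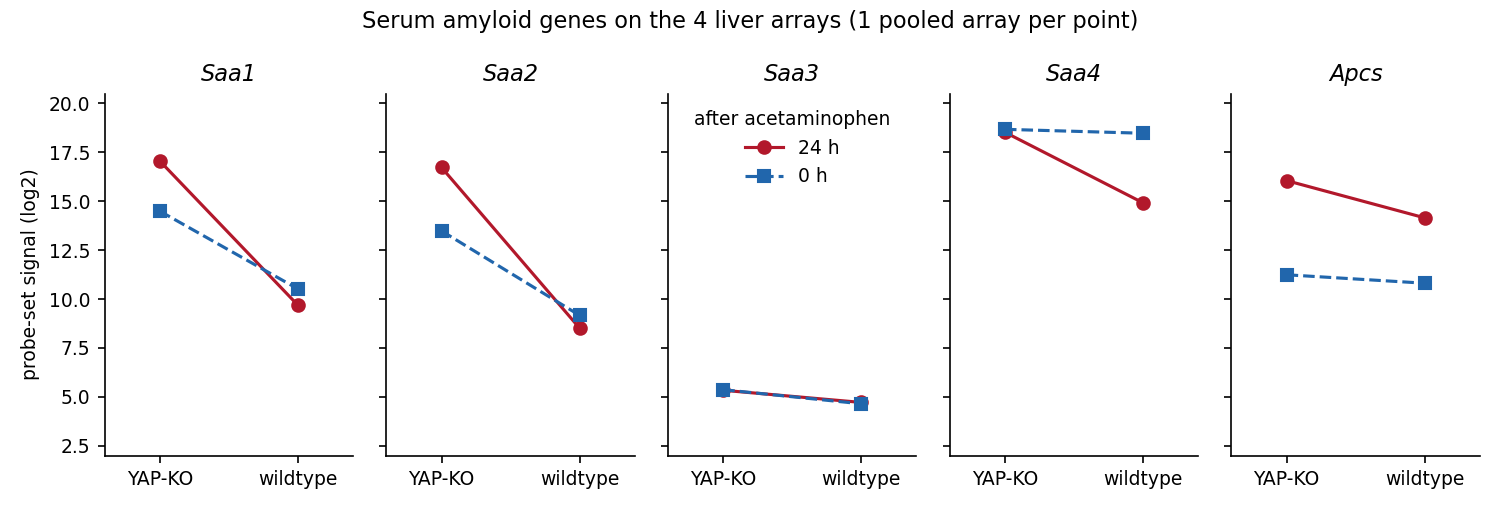
Probe-set signal (log2, y axis) of each serum amyloid gene in YAP-KO and wildtype liver, with 1 point per pooled array and lines joining the genotypes at 24 h (red circles) and at 0 h (blue squares). Saa1 and Saa2 are higher in YAP-KO at both times, Saa4 is low at 14.92 on the wildtype 24 h array alone, Apcs is higher at 24 h in both genotypes, and Saa3 stays between 4.65 and 5.37.

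The genotype difference (YAP-KO minus wildtype) of Saa1 was 7.36 at 24 h, or 164-fold, and 3.97 at 0 h, or 15.7-fold. That of Saa2 was 8.20 at 24 h, or 294-fold, and 4.31 at 0 h, or 19.8-fold. On the log2 scale the gap already present at 0 h came to 53.9% of the 24 h gap for Saa1 and 52.6% for Saa2. The rest came from 24 h minus 0 h differences of opposite sign. In YAP-KO, Saa1 was 2.56 and Saa2 3.24 higher at 24 h than at 0 h. In wildtype, Saa1 was lower at 24 h by 0.83 (a difference of -0.83) and Saa2 differed by -0.65.

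Because the genotypes differed before the overdose, the size of each 24 h difference depends on which 0 h array it starts from. Set against the wildtype 0 h array, YAP-KO at 24 h was 6.53 higher for Saa1 and 7.55 higher for Saa2. Set against the YAP-KO 0 h array, wildtype at 24 h was at -4.80 for Saa1 and -4.96 for Saa2. The direction in each genotype was the same from either 0 h array for these genes.

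Saa1 and Saa2 gave close readings of the same pattern. After each was centred on its own mean, their root mean square distance over the 4 arrays was 0.39, against 1.42 to 3.03 for the other pairs among the 5 genes. Their differences were within 0.84 of each other in every comparison. They are close paralogs, and how far each probe set also reads the other transcript was not tested, so they may not be separate observations.

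Saa3, the third acute phase form, differed between the genotypes in the same direction but by far less, and differed little between 24 h and 0 h. It read 5.34 in YAP-KO and 4.72 in wildtype at 24 h, and 5.37 in YAP-KO and 4.65 in wildtype at 0 h. These are dim readings: of the 18451 genes kept after the 40% with the lowest means were left out (means below 4.322), 12.3% to 32.4% lay below Saa3, depending on the array. The genotype difference was 0.62 at 24 h and 0.72 at 0 h, and the 24 h minus 0 h difference was -0.03 in YAP-KO and 0.07 in wildtype. No detection call was used here, so such a low reading cannot be told from a transcript that was not detected.

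Saa4, the constitutive form, was close to the same level on 3 arrays and low on the wildtype 24 h array. It read 18.52 in YAP-KO and 14.92 in wildtype at 24 h, and 18.67 in YAP-KO and 18.47 in wildtype at 0 h. The genotype difference was thus 3.60 at 24 h, or 12.1-fold, and 0.20 at 0 h. The wildtype 24 h minus 0 h difference was -3.55, the lowest of any member, while that in YAP-KO was -0.15. For Saa4 the gap at 0 h was 5.6% of that at 24 h, unlike the share in Saa1 and Saa2. The values of Saa4 at 24 h in YAP-KO and at 0 h in wildtype differed by 0.05.

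Apcs was higher at 24 h in both genotypes. It read 16.05 in YAP-KO and 14.15 in wildtype at 24 h, and 11.24 in YAP-KO and 10.81 in wildtype at 0 h. The 24 h minus 0 h difference was 4.81 in YAP-KO, or 28.1-fold, and 3.34 in wildtype, or 10.1-fold. The genotype difference was 1.90 at 24 h and 0.43 at 0 h. Both 24 h arrays lay above both 0 h arrays.

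Across the 5 genes, those at least 2-fold higher in YAP-KO than in wildtype at 24 h numbered 4 (all but Saa3), where 3.24% of the 18451 genes were, and 0 were 2-fold lower, where 5.73% of genes were. At 0 h, 2 were 2-fold higher (Saa1 and Saa2), against 1.01% of genes, and 0 lower, against 0.878%. In YAP-KO, 3 were 2-fold higher at 24 h than at 0 h (Saa1, Saa2 and Apcs), against 4.72% of genes, and 0 lower, against 2.22%. In wildtype, 1 was 2-fold higher (Apcs), against 12.7% of genes, and 1 lower (Saa4), against 5.9%. The 24 h response of YAP-KO minus that of wildtype was at least 1 log2 unit for 4 genes, against 5.67% of genes, and 0 were as far below, against 7.5%. Since the genes were chosen with these differences known, nothing is read from the counts. The shares of all genes given here are also those to set beside the counts of the gene lists below.

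**Figure D2:**
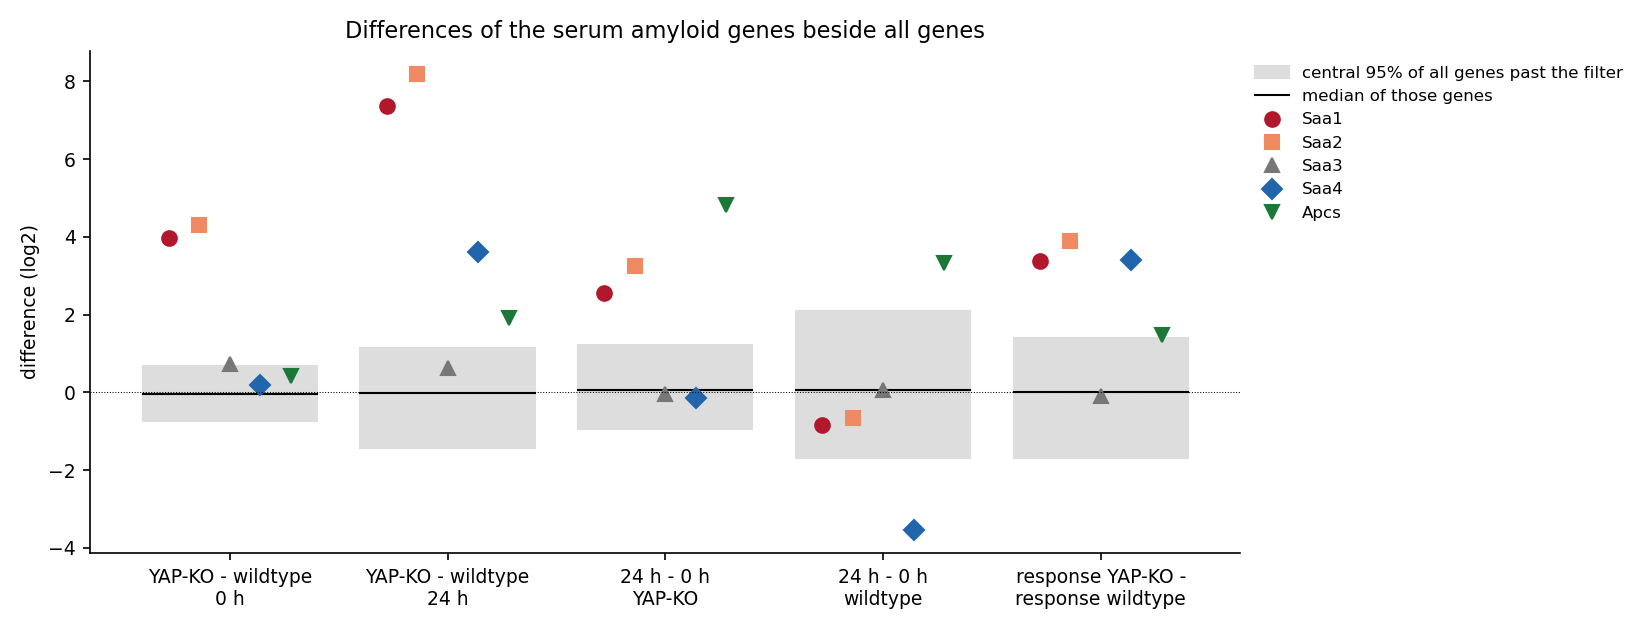
Log2 differences (y axis) of the 5 serum amyloid genes in 5 comparisons of single arrays, where grey boxes span the central 95% of 18451 genes and black lines are their medians. Saa1 and Saa2 lie above the boxes for both genotype differences, at 3.97 to 8.20, and inside the box for wildtype 24 h minus 0 h, where Saa4 is at -3.55.

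As read, other hepatic acute phase genes differed between the genotypes less than Saa1 and Saa2 did, and by gene in different ways. Of 22 such genes listed with earlier results of these arrays known, 20 had a probe set past the filter. Among these, Fgb and Fgg were saturated on all arrays and Orm1, Hpx and Fga on some, so a difference in these could be hidden or understated, and each median is also given without those 5 genes. At 24 h, 7 of the 20 were 2-fold higher in YAP-KO and 1 was lower, against 3.24% and 5.73% of all genes. Their median difference was 0.65 (0.77 without saturated genes) against -0.02 over all genes. The higher ones were Orm2 (3.50), encoding an orosomucoid, the pentraxin gene Crp (2.0), the protease inhibitor gene Serpina3n (1.74, with a YAP-KO reading only 0.04 below the top of the scale), Lbp, encoding lipopolysaccharide binding protein (1.44), the complement gene C4b (1.20), Itih3 (1.17) and Orm1, for which 1.0 is a lower bound because the YAP-KO reading at 24 h was saturated. Cd14, encoding a lipopolysaccharide co-receptor and also one of the monocyte and macrophage markers, differed by -3.73. At 0 h, 3 of 20 were 2-fold higher and 0 lower, against 1.01% and 0.878% of all genes, with a median of 0.11 (0.16 without saturated genes) against -0.03. The 3 were Serpina3n (2.86), Lcn2, encoding lipocalin 2 (2.68), and Fgl1 (1.24). The YAP-KO reading of Serpina3n at 0 h was 0.17 below the top of the scale, so its difference may be understated.

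The pentraxin Crp can be set beside Apcs, since both belong to one family. Crp read 15.53 in YAP-KO and 13.53 in wildtype at 24 h, and 15.55 and 15.60 in the same order at 0 h. It was therefore low on the wildtype 24 h array alone, as Saa4 was, and not higher at 24 h, as Apcs was. The long pentraxin gene Ptx3 was below the filter, at 3.67 to 4.08.

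In wildtype, where Saa1 and Saa2 were lower at 24 h by less than 2-fold, some acute phase genes were far higher. Of the 20, 6 were 2-fold higher at 24 h than at 0 h and 1 was 2-fold lower, against 12.7% and 5.9% of all genes. Their median was 0.08 (0.17 without saturated genes), beside 0.07 over all genes. Lcn2 was higher by 6.27 (11.70 at 24 h, against 5.43 at 0 h), Cd14 by 4.66 and Fgl1 by 2.71, followed by Serpina3n (1.30), the interleukin 1 antagonist gene Il1rn (1.14) and Itih3 (1.04), while Crp was at -2.07. In YAP-KO, at least 6 were 2-fold higher and 0 were 2-fold lower, against 4.72% and 2.22% of all genes. Orm1, at 0.99 with a saturated 24 h reading, is a lower bound and is not counted. The median there was 0.64 (0.71 without saturated genes), beside 0.07. The 6 higher ones were Lcn2 (3.63), Orm2 (3.57), Fgl1 (2.24), Lbp (1.57), Itih3 (1.55) and Il1rn (1.28). Orm2 differed by 0.17 in wildtype between 24 h and 0 h. It differed by only 0.10 between the genotypes at 0 h, where Saa1 and Saa2 differed by 3.97 and 4.31.

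**Figure D3:**
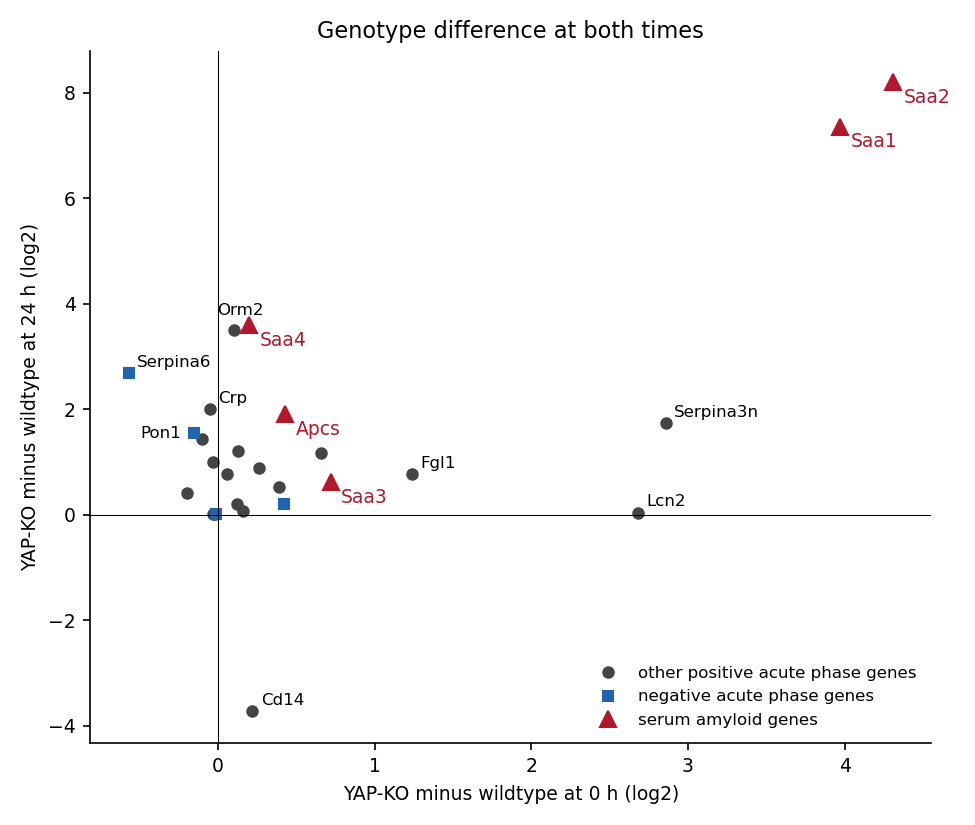
Genotype difference (YAP-KO minus wildtype, log2) at 0 h (x axis) and at 24 h (y axis) for the serum amyloid genes (triangles), other positive acute phase genes (circles) and negative acute phase genes (squares), with 1 point per gene and genes saturated on all arrays left out. Saa1 and Saa2 stand at the upper right at both times, Serpina3n and Lcn2 lie to the right at 0 h, and Orm2 lies beside Saa4, at 3.50 for 24 h and 0.10 for 0 h.

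Some receptor genes of the cytokine pathways known to control Saa1 and Saa2 were among those higher in YAP-KO at 0 h. The receptor genes Il1rap and Lifr did not show this, at -0.39 and 0.02. Whether these differences bear on Saa1 or Saa2 was not tested. Of 17 genes of interleukin 1, tumour necrosis factor and NF-kB signalling, 15 were measured, and 2 of them were 2-fold higher in YAP-KO at 0 h and 0 lower (median 0.09 against -0.03). Il1r1, the signalling receptor for interleukin 1, read 15.68 in YAP-KO and 12.04 in wildtype at 0 h, and 13.63 and 13.64 in the same order at 24 h. Its genotype difference was thus 3.64 at 0 h and -0.01 at 24 h, where those of Saa1 and Saa2 were largest. Tnfrsf1a, a receptor for tumour necrosis factor, differed by 1.45 at 0 h and -0.23 at 24 h. At 24 h 0 of the 15 were higher and 3 lower (median -0.19 against -0.02), namely the cytokine gene Il1b (-1.80) and the NF-kB inhibitors Nfkbia (-1.12) and Tnfaip3 (-1.09).

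In wildtype 8 of 15 were 2-fold higher at 24 h and 1 lower (median 1.03 against 0.07), where 12.7% of all genes were higher and 5.9% lower, including Il1b (1.86), Tnfaip3 (1.57) and Nfkbiz (1.34), an NF-kB cofactor. Il1rap, the accessory subunit of the interleukin 1 receptor, was at -1.47. In YAP-KO 0 of 15 were higher and 1 lower (median 0.28 against 0.07), that one being Il1r1 (-2.05), where 4.72% of all genes were higher and 2.22% lower. The response of YAP-KO minus that of wildtype was at least 1 unit below 0 for 7 of 15 and above for 0 (median -0.86 against 0.00).

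In the interleukin 6 family and STAT3 list, 9 of 13 genes passed the filter on dim genes. Il6 itself read 3.62 to 3.97 over the arrays, and Il11, Lif and Osm were below the filter too, so the cytokines could not be followed. At 0 h 3 of 9 were 2-fold higher in YAP-KO and 0 lower (median 0.78 against -0.03), against 1.01% and 0.878% of all genes. The 3 were Stat3 (1.24), the transcription factor of the pathway, and the receptor genes Osmr (1.16) and Il6ra (1.05). At 24 h 1 was higher and 1 lower (median -0.17 against -0.02), Lifr (1.14), encoding the leukaemia inhibitory factor receptor, and Osmr (-1.03). In wildtype 6 of 9 were 2-fold higher at 24 h and 1 lower (median 1.14 against 0.07), against 12.7% and 5.9% of all genes. In YAP-KO 1 was higher and 2 lower (median 0.03 against 0.07), against 4.72% and 2.22%. The 3 largest differences in wildtype were those of Lifr (-2.55), Osmr (2.39) and the STAT3 target Pim1 (1.56). In YAP-KO these genes were at -1.43, 0.20 and -0.29 in the same order. Stat3 read 10.71 in YAP-KO and 10.42 in wildtype at 24 h, and 10.59 in YAP-KO and 9.35 in wildtype at 0 h, so only the wildtype 0 h array was low.

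Of 9 transcription factor genes tied to liver and acute phase transcription, 8 were measured. Cebpd, an inducible C/EBP gene, was 1.0 higher in YAP-KO at 0 h and differed by -0.80 at 24 h, and it was the only one of the 8 past 2-fold at 0 h (median 0.18 against -0.03, 0 lower). Onecut1, encoding a hepatocyte factor, was the only one past it at 24 h, at 2.32 (median 0.20 against -0.02, 0 lower). Cebpb, encoding the C/EBP member most tied to the acute phase, stayed between 8.48 and 8.85. In wildtype 1 was 2-fold higher at 24 h, Cebpd (1.67), and 2 lower, Onecut1 (-2.98) and Cebpa (-2.43), with a median of -0.34 against 0.07. In YAP-KO 0 were higher and 2 lower, Hnf4a (-1.45) and Cebpa (-1.28), with a median of -0.30 against 0.07.

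Few genes had a pattern over the arrays like that of Saa1 or Saa2. Likeness was measured as the root mean square distance between centred log2 values over the 4 arrays, among 12135 named, unsaturated genes past the filter. None lay within 0.5 of Saa1 or of Saa2. The values were not scaled, so the distance depends on the size of the changes as well as their shape. Saa1 spanned 7.36 and Saa2 8.20 over the arrays. By correlation, which ignores size, Serpina10 ranked 2 for both, while Angptl8 ranked 40 for Saa1 and 37 for Saa2. The nearest to Saa1 were Angptl8, whose product inhibits triglyceride clearance (1.66), the protease inhibitor gene Serpina10 (1.76), the endoplasmic reticulum gene Creld2 (1.83), Serpina7, encoding thyroxine-binding globulin (1.88), and Syvn1, encoding a ubiquitin ligase of the endoplasmic reticulum (1.93). The nearest to Saa2 were Angptl8 (1.95), Serpina10 (2.11), Creld2 (2.13), the endoplasmic reticulum gene Sdf2l1 (2.22) and Orm2 (2.25). In wildtype Saa1 and Saa2 were lower at 24 h than at 0 h, by less than 2-fold. Creld2 (1.63), Sdf2l1 (0.56), Syvn1 (0.28) and Orm2 (0.17) were not lower there, while Angptl8 (-1.11), Serpina10 (-0.55) and Serpina7 (-2.0) also had negative differences.

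Saa4 and Apcs had closer counterparts. Those of Saa4 were Gulo, an enzyme gene of vitamin C synthesis (0.31), the cytochrome P450 gene Cyp2c70 (0.35), Sdr9c7 (0.39), Ido2, of tryptophan catabolism (0.43), and the fatty acid synthase gene Fasn (0.43). Each was lower at 24 h in wildtype, at -3.66 for Sdr9c7 to -2.56 for Fasn, and within 0.73 of its 0 h level in YAP-KO. Those of Apcs were Clec7a, a myeloid cell receptor gene (0.46), Dnajc12 (0.50), the mucin gene Muc3 (0.65), the matrix gene Tnc (0.71) and the macrophage gene Cd68 (0.71). At 24 h Clec7a (1.53), Dnajc12 (1.97) and Muc3 (2.07) had a genotype difference like that of Apcs (1.90). Tnc (-0.06) and Cd68 (-0.02) did not, and shared only its higher level at 24 h. Saa3 was so flat that 8181 of the 12135 genes lay within 0.5 of it, among them Atg13 at 0.02, so its nearest genes say little.

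**Figure D4:**
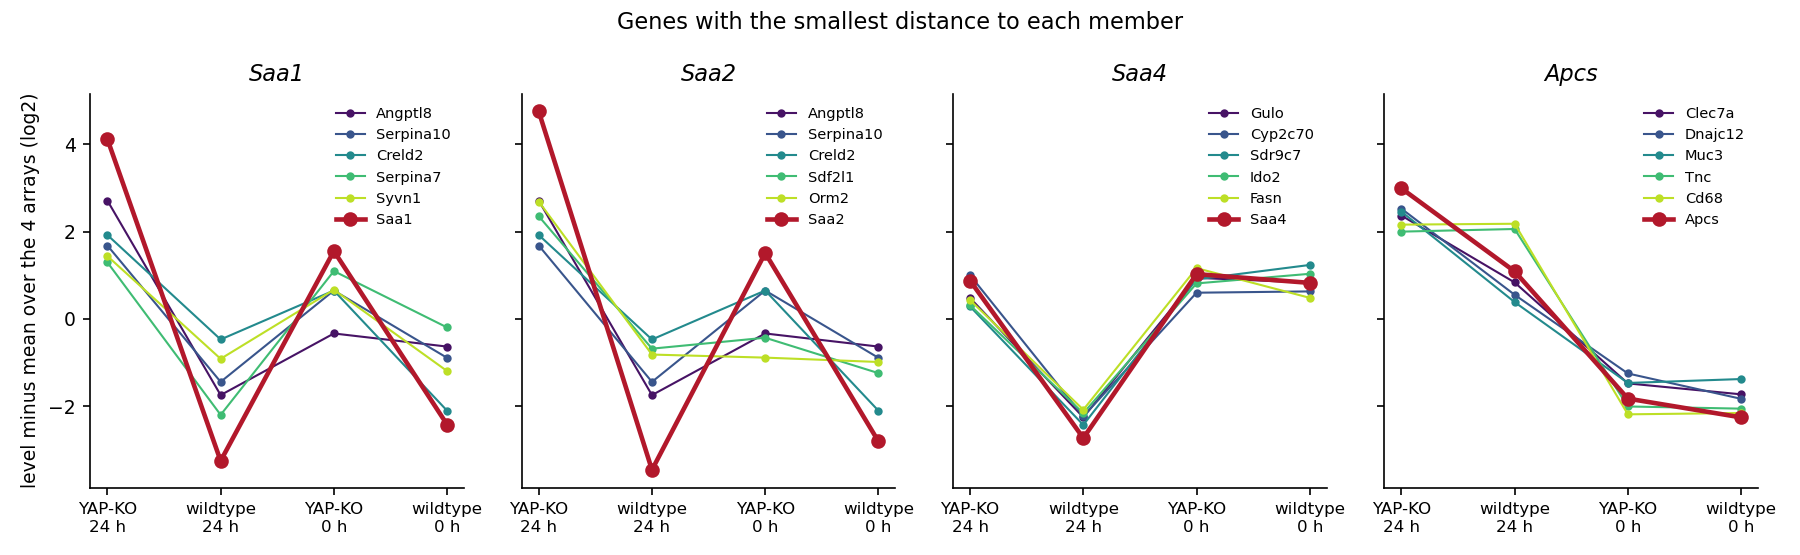
Levels minus each gene's mean over the 4 arrays (log2, y axis) for Saa1, Saa2, Saa4 and Apcs (thick red lines) and the 5 genes nearest to each (thin lines), by array (x axis). The companions of Saa1 and Saa2 have a smaller range, and their genotype difference at 0 h runs from 0.10 (Orm2) to 2.75 (Creld2). Orm2 is high on the YAP-KO 24 h array and nearly flat on the others. Those of Saa4 (distances 0.31 to 0.43) follow it closely down to the wildtype 24 h array.

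Genes beside the Saa cluster did not share the genotype difference. Of the 10 nearest named genes, 5 on each side, 6 passed the filter. At 24 h 0 of these 6 were 2-fold higher in YAP-KO and 1 lower, the general transcription factor gene Gtf2h1 (-1.44), and at 0 h they lay between -0.42 and 0.17. The closest, Saal1 at 1.3 kb and Hps5 at 6.2 kb from the cluster, differed by -0.04 and 0.26 at 24 h. Saa3 lies inside the cluster and differed by 0.62. Of the 10 genes nearest to Apcs, 2 passed the filter, Crp at 194.0 kb and Dusp23 at 261.0 kb, which differed by 2.0 and 0.72 at 24 h.

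**Figure D5:**
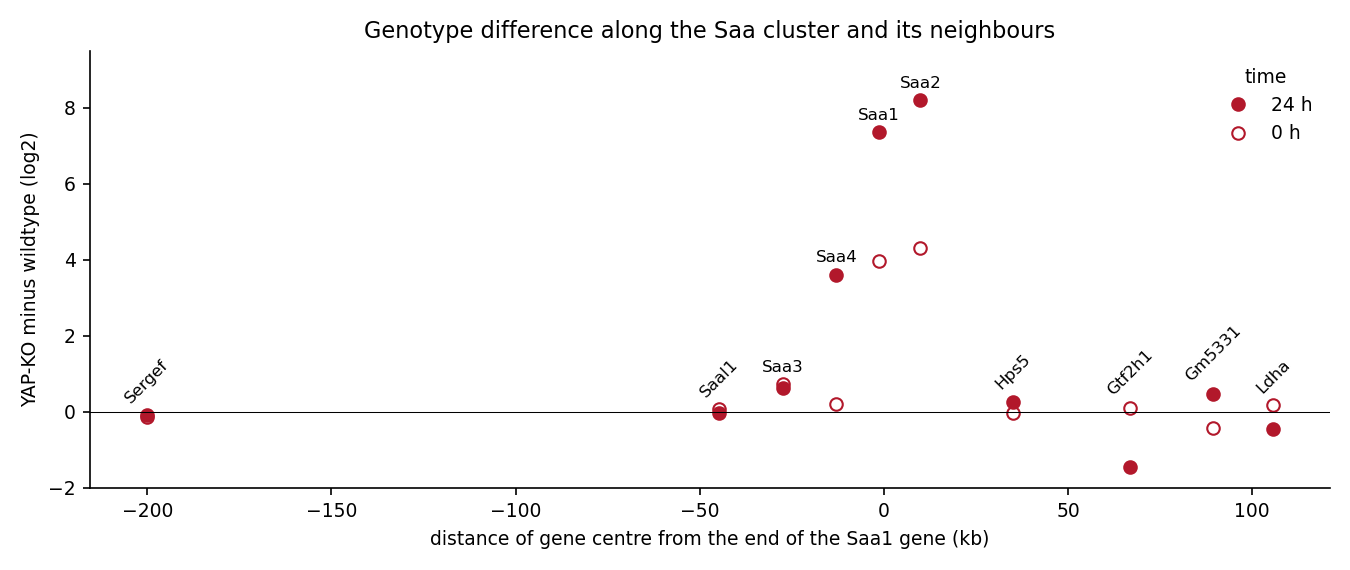
Genotype difference (YAP-KO minus wildtype, log2, y axis) at 24 h (filled) and 0 h (open) for the Saa genes and the neighbouring genes past the filter, against the distance of the gene's centre from the end of Saa1 (kb, x axis). Saa4, Saa1 and Saa2 reach 3.60 to 8.20 at 24 h, while the 6 neighbours lie between -1.44 and 0.48.

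Markers of other liver cells differed between the same arrays, and their part in the results was not tested. Summed levels add linear signals, so the brightest probe sets weigh most. Among the monocyte and macrophage markers that was Lyz2, at 13.23 in YAP-KO and 13.24 in wildtype at 24 h. The summed level of the neutrophil markers (7 of 9 past the filter, with Ngp and Ltf below it) was, as a log2 value, 9.34 in YAP-KO and 11.24 in wildtype at 24 h, and 8.33 and 8.19 in the same order at 0 h. It was highest on the wildtype 24 h array, where Saa1, Saa2 and Saa4 were lowest. At 24 h 4 of the 7 were 2-fold lower in YAP-KO and 0 higher (median -1.63), against 5.73% and 3.24% of all genes. These 4 were Retnlg (-2.68), S100a8 (-2.47), Mmp8 (-2.02) and S100a9 (-1.63). The markers did not move as one: Ly6g (0.53) and Camp (0.18) had positive differences there, Cxcr2 was at -0.50, and Ly6g (-0.63) and Camp (-0.65) were not higher at 24 h in wildtype. Monocyte and macrophage markers (9 of 9) summed to 13.81 in YAP-KO and 13.95 in wildtype at 24 h, and 11.21 and 11.49 at 0 h. Their sums were higher at 24 h in both genotypes, as Apcs was. In YAP-KO 6 of 9 were 2-fold higher at 24 h and 0 lower (median 1.66), against 4.72% and 2.22% of all genes. In wildtype 6 were higher and 0 lower (median 2.26), against 12.7% and 5.9%. The 6 were not the same. Cd14 was among them in wildtype only (4.66, against 0.71 in YAP-KO) and Ly6c2 in YAP-KO only (2.14, against 0.65). Csf1r (-0.03 in YAP-KO and 0.99 in wildtype) and Adgre1 (0.31 and 0.52) were past 2-fold in neither. Chil3 was higher by 5.61 in YAP-KO and 5.22 in wildtype, and Cd68 by 4.34 and 4.33 in the same order. Between the genotypes at 24 h, 2 of the 9 were 2-fold lower in YAP-KO, Cd14 (-3.73) and Csf1r (-1.27), and 0 were higher (median -0.04).

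Kupffer cell markers (5 of 5) summed to 12.06 in YAP-KO and 12.98 in wildtype at 24 h, and to 11.41 and 11.48 at 0 h. At 24 h 2 of the 5 were 2-fold lower in YAP-KO and 0 higher (median -0.58), against 5.73% and 3.24% of all genes. These were Vsig4 (-1.70) and Marco (-1.67). For 24 h minus 0 h, Marco was at 1.64 in YAP-KO and 3.16 in wildtype, but Clec4f was at -0.70 and 0.00 in the same order. Stellate cell markers (5 of 5) summed to 10.45 and 10.64 at 24 h and to 9.94 and 9.85 at 0 h. These did not move as one either. At 24 h 1 of the 5 was 2-fold higher in YAP-KO, Lrat (1.16), and 0 lower (median 0.10), while Reln was at -0.72. For 24 h minus 0 h, Acta2 was at 2.96 in YAP-KO and 3.07 in wildtype, and Lrat at -0.30 and -1.32 in the same order. Of 4 fat cell markers, Adipoq and Plin1 were below the filter on the mean over the arrays, at 3.73 to 4.11, and Fabp4 alone passed it, at 8.13 in YAP-KO and 9.94 in wildtype at 24 h. The erythroid gene Alas2 differed by -0.02 between the genotypes at 24 h, and 4 globin probe sets, each annotated to several genes, by -2.52 to -1.73. Of 8 hepatocyte markers 5 were saturated on all arrays, so hepatocyte content could not be followed from them. Tat was saturated on some arrays, and Cps1 lay 0.02 to 0.03 below the top on 3 arrays, so its genotype difference of 0.77 at 24 h is at best a lower bound. Hnf4a, the only one well below the top, differed by 0.25.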

How the data were processed

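Total RNA from liver lysates was extracted with Trizol and labelled with biotin by the GeneChip WT Plus kit, per the labels' protocols. The deposited values of 65956 probe sets were taken as log2 from their range. How probes were summarised and normalized, and to which log base, is not given in the sources used here. Gene names came from the array platform's annotation and were updated through Entrez identifiers to RefSeq (GRCm38.p6). Of the probe sets 31224 had 1 gene, including 620 with several names of 1 gene, 1526 had several genes and 33206 none. The probe set with the highest mean stood for a gene, and genes with a mean below the 40th percentile (4.322) were left out, leaving 18451 of 30751. Values within 0.01 of an array's top value were treated as saturated.

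Comparisons are differences of log2 values between single arrays, with genes counted at 2-fold. No p-value was computed, as 1 array per group leaves no residual degrees of freedom, and the number of arrays limits the precision. The calculation was tested on simulated data. The members and gene lists were chosen with earlier results of these data known. Named were the 5 members, Yap1, up to 6 genes per list with the largest differences, those receptor, cytokine and transcription factor genes whose role is described, the 5 genes nearest in pattern to each member (predicted, RIKEN, receptor segment and small RNA genes left out), and the 5 nearest named genes with a probe set on each side of the Saa cluster and of Apcs. Other list genes, such as Lbp, C4b, Itih3, Orm1, Il1rn, Nfkbia, Csf1r, Camp, Fetub and Rbp4, were named after their values were seen, to spell out a count or a list. Alternatives were quantile normalization, median centring, the mean of probe sets, other filters and folds, the other genotype's 0 h array as baseline, likeness by correlation and a shorter promoter window. Promoter pairs were aligned globally with Biopython 1.88 under Python 3.11.15. Promoters came from RefSeq, and all 5 members had one.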

Additional observations from a re-analysis of the deposited data

Results flagged for a closer look

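The 24 h minus 0 h differences of Saa1 and Saa2 had opposite signs in the genotypes. The response in YAP-KO minus the response in wildtype was 3.39 for Saa1 (2.56 in YAP-KO and -0.83 in wildtype) and 3.89 for Saa2 (3.24 in YAP-KO and -0.65 in wildtype). Saa3 also had opposite signs, with a difference of -0.10, but both of its values, -0.03 in YAP-KO and 0.07 in wildtype, were close to 0. With 1 array per group, none of the differences between the genotypes' responses given here was tested.

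Other named genes had opposite signs too, many with a response near 0 in one genotype. Those with a positive response in YAP-KO and a negative one in wildtype, as Saa1 and Saa2 had, were Angptl8 (a difference of responses of 4.15), Cyp2c70 (3.26), Serpina7 (2.2), Pon1 (1.69), Serpina10 (1.58), Dusp23 (1.16), C4b (1.07), Cd36 (1.05), Orm1 (1.03, a lower bound), Lcat (0.87), Cps1 (0.80, near the top of the scale), Ly6g (0.72), Apoc1 (0.65), Col1a1 (0.40) and Hps5 (0.28). Those with a negative response in YAP-KO and a positive one in wildtype were Il1r1 (-3.65), Pim1 (-1.85), Cebpd (-1.80), Tnfrsf1a (-1.68), Csf1r (-1.02), Nfkbia (-0.86), Tlr2 (-0.80) and Abca1 (-0.34). Il1r1 was at -2.05 in YAP-KO and 1.60 in wildtype.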

How the results depend on the processing

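No paired analysis was possible because each group has 1 array and the labels give every array the replicate number 1. All 25 differences of the members (5 genes in 5 comparisons) moved by at most 0.39 under quantile normalization and 0.15 under median centring. Taking the mean of probe sets could not change them, as each member has 1. With the other genotype's 0 h array as baseline, the 24 h difference in YAP-KO was 6.53 for Saa1, 7.55 for Saa2 and 0.69 for Saa3, and that in wildtype was -4.80, -4.96 and -0.65 in the same order, while those of Saa4 and Apcs moved by less than 1.5-fold. At 1.5-fold, 3 members in place of 1 were lower at 24 h in wildtype. Those higher in YAP-KO than in wildtype then numbered 3 in place of 2 at 0 h and 5 in place of 4 at 24 h, with Saa3 added at both times. With no filter on dim genes, the median of the pentraxin genes in YAP-KO (24 h minus 0 h) was -0.02 in place of 2.40, and that of the fat cell markers was -0.13 in place of 3.06 in wildtype and 0.11 in place of -2.30 for the difference of responses, since dim genes then enter lists of 1 or 2. The neutrophil median at 24 h between the genotypes was -0.50 without the filter. Under median centring the median of all genes for wildtype 24 h minus 0 h was 0.22 in place of 0.07. By correlation over the arrays, 1 of the 5 genes nearest to Saa1, 1 of those nearest to Saa2 and 1 of those nearest to Apcs stayed among the top 5, and 0 for Saa3 and Saa4. In the window of 250 bases the shares of promoters with a match were 9.6% for the C/EBP motif, 7.0% for STAT, 7.6% for TATAAA and 55.5% for the NF-kB consensus. Readings near the top of the scale and dim readings such as those of Saa3 have no known linear range here.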

Other observations

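Serum amyloid A proteins displace other proteins on HDL particles, so genes of HDL proteins were looked at beside them. Of 12 listed genes 11 were measured, and Apoa1 and Apoa2, the main HDL apolipoprotein genes, were saturated on all arrays. At 24 h 1 of 11 was 2-fold higher in YAP-KO and 1 lower (median 0.41, or 0.49 without the saturated genes, against -0.02 over all genes). Pon1, encoding the HDL enzyme paraoxonase, read 18.36 in YAP-KO and 16.82 in wildtype at 24 h, and 18.32 and 18.47 in the same order at 0 h. It was thus low on the wildtype 24 h array alone, as Saa4 was. Apoa4, another apolipoprotein gene, read 14.23 in YAP-KO and 16.84 in wildtype at 24 h, and 12.87 and 11.25 in the same order at 0 h, so its genotype difference had opposite signs at the times, -2.61 at 24 h and 1.62 at 0 h. Its 24 h minus 0 h difference was 1.36 in YAP-KO and 5.59 in wildtype.

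Among 9 negative acute phase genes, whose transcripts are known to be lower in an acute phase response, 5 were saturated on all arrays. At 24 h 2 of the 9 were 2-fold higher in YAP-KO and 0 lower (median -0.04, or 0.88 over the 4 unsaturated genes, against -0.02). Serpina6, encoding corticosteroid-binding globulin, read 11.35 in YAP-KO and 8.66 in wildtype at 24 h, and 13.48 and 14.05 in the same order at 0 h. Its 24 h minus 0 h difference was -2.13 in YAP-KO and -5.39 in wildtype. The other unsaturated genes were Pon1, Rbp4, a retinol carrier gene, at 0.03 in YAP-KO and 0.01 in wildtype for 24 h minus 0 h, and Fetub, encoding fetuin B, at -0.41 in YAP-KO and -0.20 in wildtype. Of 8 proposed receptors for serum amyloid A, 5 were past the filter and 0 differed 2-fold between the genotypes at 24 h (median 0.04 against -0.02). The scavenger receptor gene Cd36 was the only one past 2-fold at 0 h, at 10.15 in YAP-KO and 11.16 in wildtype, a difference of -1.01.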
